A study of Mus musculus with 19 samples.

Results

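The MYC, MAX and MLX network was examined through 10 genes of mouse liver, namely Myc, Mycn, Mycl, Max, Mxd1, Mxd4, Mxi1, Mnt, Mlx and Mlxipl. They were taken by gene symbol from a table of 55421 genes, and each symbol named a row there. All 10 passed the filter on low counts in every comparison. Livers came from male C57BL/6 mice, and the title of the series names the AP-1 dimer of c-Jun and Fra2, the protein encoded by Fosl2, as the driver. The title also names c-Myc, the product of Myc. Every animal, control littermates included, was taken off doxycycline at weaning, 3 weeks after birth, which switched the transgene on in mutants. The groups were 6 control and 3 mutant livers at 2 months after that switch, and at 9 months 3 control livers, 3 pieces of mutant liver without visible tumour (called tumour-free tissue here) and 4 tumours. The tumour-free pieces and the tumours came from the same 3 mutants, 2 tumours from mutant 1 and 1 from each of the other two, so the 19 libraries stand for 15 animals. Which promoter drives the transgene is not stated in the labels used here. The labels describe the material as mostly hepatocytes, or mostly transformed hepatocytes in tumours and tumour-free tissue, and all of it is bulk RNA, in which fewer cells of a type and less RNA per cell cannot be told apart.

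MYC proteins are transcription factors that bind DNA as dimers with MAX, most strongly at the E-box CACGTG, and raise expression of genes for growth and division. MXD proteins and MNT compete for MAX, bind the same sites and repress. MLX is the parallel partner in the same network: it pairs with ChREBP, the glucose-sensing factor of liver encoded by Mlxipl, and with its relative MondoA, encoded by Mlxip, and these dimers drive genes of sugar use and fat synthesis.

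The E-box itself occurred at the starts of several of these genes, which is why the following stretches are shown. RefSeq promoters (build GRCm38.p6, 250 bases before to 50 after the start) were matched for 9 of the 10 genes, all but Myc. The letters CACGTG, which read the same on both strands, were found in 5 of the 9 (55.6%), compared with 8.09% of all 27025 genes with such a promoter. Each line gives part of the window in the gene's own direction, 5′ to 3′, with the E-box in capitals.
Max: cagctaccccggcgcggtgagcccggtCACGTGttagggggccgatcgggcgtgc
Mxd4: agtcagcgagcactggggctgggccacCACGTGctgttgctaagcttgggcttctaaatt
Mnt: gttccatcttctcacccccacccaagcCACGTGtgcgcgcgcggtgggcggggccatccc
Mlx: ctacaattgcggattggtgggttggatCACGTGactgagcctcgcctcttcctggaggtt
Mlxipl: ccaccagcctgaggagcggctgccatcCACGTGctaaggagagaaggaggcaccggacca
These stretches lie at chr12:76962224-76962278 on the minus strand for Max, chr5:34187897-34187956 on the minus strand for Mxd4, chr11:74830774-74830833 on the plus strand for Mnt, chr11:101087223-101087282 on the plus strand for Mlx and chr5:135089765-135089824 on the plus strand for Mlxipl. The E-box began 3 bases before the start in Max, 40 in Mlx, 98 in Mlxipl, 123 in Mnt and 219 in Mxd4. Mlxipl has a further promoter downstream, at chr5:135106641-135106940, without these letters. Counts per gene do not show which of its starts was used. Mycn, Mycl, Mxd1 and Mxi1 had no such letters in the window. The AP-1 motif TGANTCA, which also reads the same on both strands and shares no overlap with the E-box letters, was in 0 of the 9 promoters and in 8.97% of all genes. A match or its absence here describes only these letters in this window.

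Total counts per library were 14294611 to 18826201 at 2 months and 18977477 to 22062341 at 9 months. Fosl2 was higher in every mutant library than in any control, at 647 to 877 CPM (counts scaled to a common library size) in 2-month mutants and 8.35 to 19.2 in their controls, and Jun was at 539 to 679 CPM and 10.5 to 25.8 CPM. At 9 months Jun was at 384 CPM in control 1 and at 39.6 and 22.7 CPM in controls 2 and 3. Control 1 and the 3 libraries of mutant 1 also stood apart in 21 immediate early genes, the rapid stress-response genes that include Fos, Egr1 and Atf3: their summed level was 4430 CPM in control 1 and 479 and 315 in the other controls, 1350 in tumour-free tissue of mutant 1 and 358 and 452 in the other pieces, and 2080 and 1740 in the tumours of mutant 1 and 385 and 376 in the others. Several results at 9 months are therefore also given without the libraries numbered 1. Hepatocyte markers (14 genes) summed to 155000 to 183000 CPM in 2-month controls, 67100 to 87300 in 2-month mutants, 146000 to 158000 in 9-month controls, 65900 to 68300 in tumour-free tissue and 66300 to 94000 in tumours. Bile duct markers (8 genes) summed to 2430 and 3120 CPM in the tumours of mutant 1, 424 and 94 CPM in those of mutants 2 and 3, and 76 to 140 CPM in 9-month controls. In the test described below, 2 of 7 rose and 0 fell in tumours against controls, beside 13.8% and 11.3% of all genes. Of these 7 markers, 4 had a positive estimate there, and 3 against tumour-free tissue, where none was called. The 2-month and 9-month libraries were sequenced in different runs, so age and run cannot be told apart.

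Per kb of exon the network was dominated by its MLX arm. The length used was the union of all annotated exons of a gene, which pools its transcripts. Mlxipl had the highest level of the 10 genes in each of the 5 groups, from 101 ± 10.9 CPM per kb of exon (SD, n = 3) in 9-month controls to 139 ± 28.9 (SD, n = 3) in tumour-free tissue, which is 62.1 to 70.1% of the 10 genes' summed level. Mlx was next in every group, at 21.3 ± 1.65 CPM per kb (SD, n = 6) in 2-month controls and 34.5 ± 4.25 (SD, n = 3) in tumour-free tissue. Mxd4 and Max followed, both between 7.69 and 11.7 CPM per kb in all groups. Myc was at 2.8 ± 1.27 CPM per kb (SD, n = 6) in 2-month controls and 9.89 ± 5.75 (SD, n = 3) in tumours. Mycn was the lowest of the 10 in every group, with means of 0.0718 to 0.617 CPM per kb.

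Of the 10 genes, 2 rose and 3 fell in 2-month mutants against controls, where 42.7% of all 13773 genes tested were called. The test here and below is edgeR's quasi-likelihood test with Benjamini-Hochberg adjustment over all genes tested, and a gene is called at an adjusted p under 0.05. In tumour-free tissue against 9-month controls 1 rose and 3 fell, against 34.9% of all genes called. In tumours against the same 3 controls 0 rose and 1 fell, against 25.1% of all genes. Between tumours and tumour-free tissue none of the 10 was called, and only 0.0137% of all genes were, namely 2 of 14566, although 1454 had an unadjusted p under 0.05 and DESeq2 called 442. The share of the 10 genes called was thus close to the background in the first 2 comparisons, and the calls are described gene by gene.

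**Figure D1:**
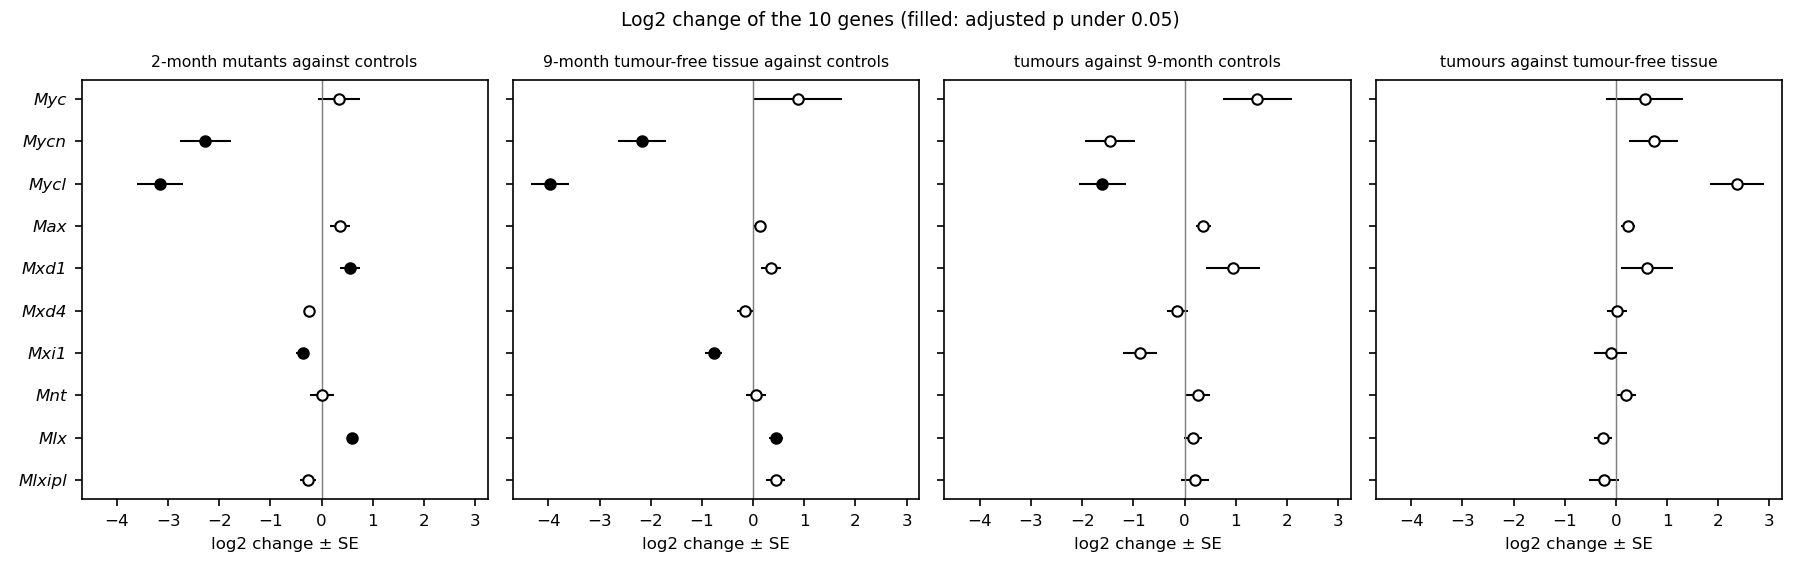
Log2 change and its standard error (x axis) for each of the 10 genes (y axis) in 4 comparisons, with filled points for an adjusted p under 0.05. Mycl lies farthest to the left in the 2-month and tumour-free panels, at -3.16 and -3.96, and no point is filled in the panel of tumours against tumour-free tissue.

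Mycl, which encodes L-MYC, showed the greatest fall of the 10 genes. Its level in 2-month controls was 2.61 at the lowest, 7.12 at the median and 9.36 CPM at the highest, and in the 3 mutants it was 0.35, 0.814 and 1.03 CPM. Every mutant lay below every control, and Mycl fell by 3.16 on the log2 scale (SE 0.441, 8.94-fold lower, adjusted p = 0.000199, edgeR). At 9 months it was at 14.9, 7.49 and 9.27 CPM in controls 1 to 3 and at 0.925, 0.428 and 0.701 CPM in tumour-free tissue of mutants 1 to 3, and it fell by 3.96 (SE 0.372, 15.6-fold lower, adjusted p = 0.000136, edgeR). Both calls held in every alternative that was run.

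In tumours Mycl stood between those levels. The tumours of mutant 1 had 1.68 and 1.88 CPM, that of mutant 2 had 5.6 CPM and that of mutant 3 had 3.4 CPM, so that each was above all tumour-free pieces and below all controls. Against controls Mycl fell by 1.61 (SE 0.458, 3.05-fold lower, adjusted p = 0.0409, edgeR). The call was lost when any of the 3 controls, mutant 1 or mutant 3 was left out (adjusted p = 0.0665 to 0.129, edgeR) and when libraries were scaled by total count alone (-1.13, adjusted p = 0.0843), and without all libraries numbered 1 the change was -0.95 (adjusted p = 0.153). Against tumour-free tissue of the same animals the difference was 2.36 (SE 0.524, 5.12-fold higher, unadjusted p = 0.00283, adjusted p = 0.247, edgeR), and it passed with DESeq2 (adjusted p = 0.00366) and in a single fit over all 5 groups (adjusted p = 0.0224). None of these fits paired the tissues by animal. The tumour effect differed from the 2-month effect by 1.58 (SE 0.652, adjusted p = 0.233, edgeR), which did not pass.

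Mycn, which encodes N-MYC, fell at both ages from a low level. It was at 0.773 to 2.03 CPM (median 1.15) in 2-month controls and at 0.117, 0.125 and 0.468 CPM in mutants, with no overlap between the groups. Mycn fell to a level 4.81-fold lower (SE 0.498 on the log2 scale, adjusted p = 0.00374, edgeR). At 9 months Mycn was at 1.15, 2.77 and 2.18 CPM in controls and at 0.44, 0.661 and 0.263 CPM in tumour-free tissue, again without overlap, a change of -2.17 (SE 0.468, adjusted p = 0.00846, edgeR). Tumours had 1.28 and 0.6 CPM in mutant 1, 0.934 CPM in mutant 2 and 0.442 CPM in mutant 3. As means per animal these lie below all controls, while 1 of the tumours of mutant 1 lies above control 1, and the change of -1.45 (SE 0.488) did not pass (adjusted p = 0.0671, edgeR). It passed with DESeq2 (adjusted p = 0.0334), in the fit over all 5 groups (adjusted p = 0.0242) and without the first tumour of mutant 1 (adjusted p = 0.0422).

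Myc itself, whose product c-MYC is the best known driver of the network, had a wide spread within groups, and no comparison of it passed. In 2-month controls it ranged from 3.31 to 12.2 CPM with a median of 7.51, and mutants had 5.61, 8.33 and 14.6 CPM. The groups overlapped, and the change of 0.34 (SE 0.403, adjusted p = 0.533, edgeR) turned to -0.11 without mutant 3. At 9 months Myc was at 18.9, 6.15 and 4.08 CPM in controls 1 to 3 and at 38.2, 7.31 and 8.41 CPM in tumour-free tissue of mutants 1 to 3. The animal numbered 1 was the highest of its group in both, and the change of 0.87 (SE 0.862, adjusted p = 0.482, edgeR) turned to -0.31 without tumour-free tissue of mutant 1.

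The highest Myc level was in a tumour. The 2 tumours of mutant 1 had 49.8 and 38 CPM, that of mutant 2 had 13.2 CPM and that of mutant 3 had 23.5 CPM. The last 2 lay above controls 2 and 3, and the tumour of mutant 2 lay below control 1. The mean over animals was 26.9 ± 15.6 CPM (SD, n = 3), against 9.7 ± 8.01 (SD, n = 3) in controls, and the change of 1.42 (SE 0.675, 2.67-fold higher) did not pass (adjusted p = 0.172, edgeR). Without all 9-month libraries numbered 1, which leaves 2 animals in each group, it was 1.78 and passed (adjusted p = 0.047, edgeR). Over all alternatives the adjusted p ran from 0.0349 to 0.425.

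Against tumour-free tissue of the same animals Myc was higher in the tumours of mutants 2 and 3, and in mutant 1 it was higher in 1 tumour and within 1 CPM of the tumour-free level in the other. The difference over animals was 0.56 (SE 0.754, adjusted p = 0.876, edgeR). Pvt1, the noncoding neighbour of Myc, was between 1.17 and 3.71 CPM in all groups and was called in none of the 7 comparisons. Whether the immediate early genes that were high in the libraries numbered 1 account for any of the Myc level there was not tested.

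**Figure D2:**
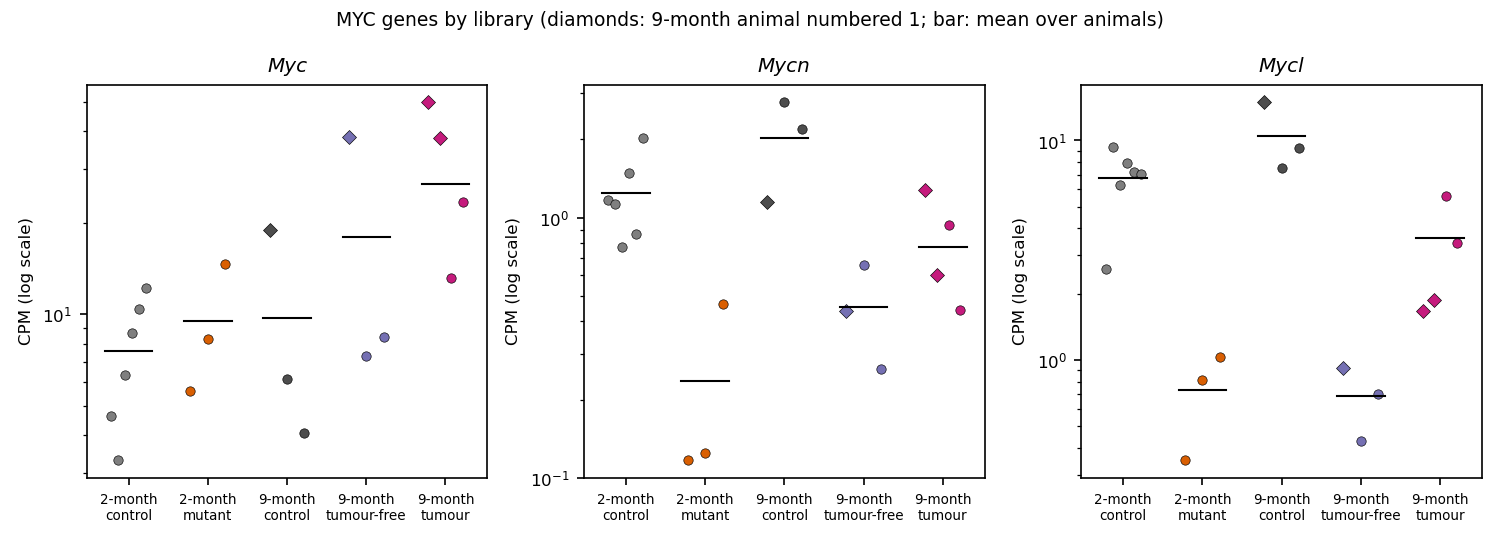
Levels of Myc, Mycn and Mycl in CPM on a log scale (y axis) in the 19 libraries by group (x axis), where a point is a library, a bar the mean over animals and a diamond a library of control 1 or mutant 1 at 9 months. Mycl in all 2-month mutants and all tumour-free pieces lies below every control, whereas the Myc groups overlap and the diamonds are the highest Myc points of their groups.

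**Figure D3:**
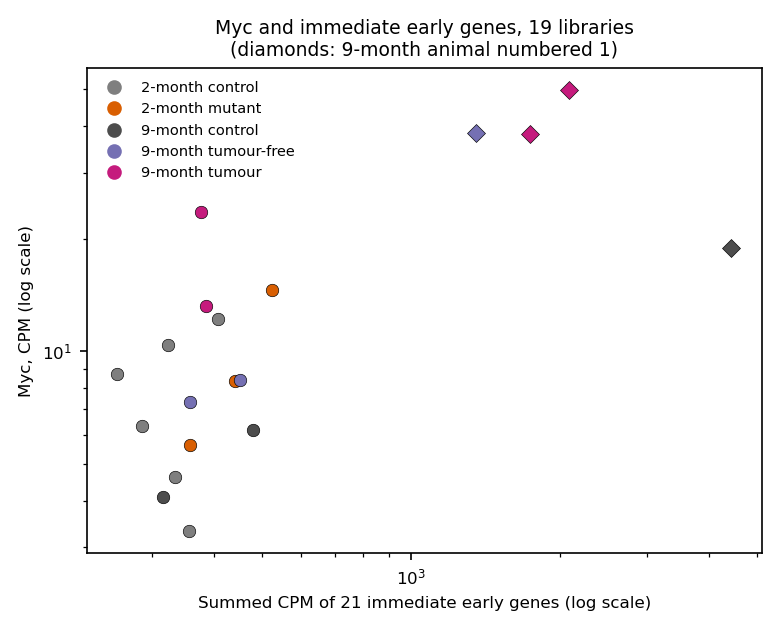
Myc in CPM (y axis, log scale) against the summed CPM of 21 immediate early genes (x axis, log scale) in the 19 libraries. The 4 libraries of control 1 and mutant 1 (diamonds) lie at 1350 CPM or more on the x axis, and all other libraries lie at 524 CPM or less.

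Max, the shared partner, was called in none of the 7 comparisons. It was at 19.9 to 37.7 CPM (median 26.9) in 2-month controls and at 26.1, 39 and 41.1 CPM in mutants, with overlap and a change of 0.36 (SE 0.194, adjusted p = 0.158, edgeR). That change passed without control 2 (0.47, adjusted p = 0.0461, edgeR). It also passed when libraries were scaled by total count alone (0.64, adjusted p = 0.024, edgeR), where the median of all genes was 0.286. In 9-month controls Max was at 28.5, 28.9 and 26.4 CPM, in tumour-free tissue at 34.6, 29.2 and 29.8 CPM, and in tumours at 37 and 34.9 CPM in mutant 1, 36 CPM in mutant 2 and 40.4 CPM in mutant 3. The change in tumour-free tissue was 0.13 (SE 0.127, adjusted p = 0.451, edgeR). It passed only under scaling by total count (0.57, adjusted p = 0.00629, edgeR), where the median of all genes was 0.425. All tumours lay above all controls, but the change of 0.37 (SE 0.144) in tumours did not pass (adjusted p = 0.101, edgeR). It passed when libraries were scaled by total count alone (0.82, adjusted p = 0.00538), a scaling under which the median of all genes in this comparison was itself shifted to 0.475.

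The repressors that compete for MAX moved in different directions. Mxi1, an MXD family member, fell in 2-month mutants and in tumour-free tissue. It was at 26.1 to 32.1 CPM (median 28.3) in 2-month controls and at 25, 23.6 and 17.5 CPM in mutants, without overlap, and fell by 0.37 (SE 0.127, adjusted p = 0.0352, edgeR). That call was lost without mutant 2 or 3 or without control 1, 3 or 6 (adjusted p = 0.052 to 0.156) and when scaled by total count alone (-0.10, adjusted p = 0.431). At 9 months it was at 37.5, 26.7 and 33.3 CPM in controls and at 22, 19.2 and 16.9 CPM in tumour-free tissue, and fell by 0.77 (SE 0.162, 1.71-fold lower, adjusted p = 0.00749, edgeR), a call lost only under scaling by total count (-0.34, adjusted p = 0.0883). Tumours had 18.9 and 20.5 CPM in mutant 1, 25.4 in mutant 2 and 10.1 in mutant 3, all below the controls. The change of -0.87 (SE 0.326) did not pass (adjusted p = 0.0907, edgeR). It passed without mutant 2 (-1.15, adjusted p = 0.0415, edgeR) and in the fit over all 5 groups (-0.86, adjusted p = 0.00804, edgeR). In the other 14 of 16 alternatives it was not called.

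Mxd1, a repressor linked to differentiation and expressed in myeloid cells, rose in 2-month mutants. Controls ranged from 5.41 to 10.7 CPM (median 7.12) and mutants had 9.64, 9.89 and 12.9 CPM, so that only the highest control overlapped the mutants. The rise was 0.55 (SE 0.194, 1.47-fold, adjusted p = 0.0384, edgeR), and it was lost without mutant 2 or 3 or any of controls 1 to 5 (adjusted p = 0.0597 to 0.18). At 9 months Mxd1 was at 12.5, 8.87 and 8.32 CPM in controls, 12.2, 14.2 and 12.1 CPM in tumour-free tissue, and 20.3 and 16.8 CPM in the tumours of mutant 1, 34 in that of mutant 2 and 7.11 in that of mutant 3. Tumours thus held both the highest and the lowest levels at that age, and neither change passed (0.35, adjusted p = 0.189, and 0.95, adjusted p = 0.229, edgeR). The first passed without all libraries numbered 1 (0.58, adjusted p = 0.0455, edgeR) and when scaled by total count alone (0.79, adjusted p = 0.0101, edgeR). The second passed without mutant 3 (1.38, adjusted p = 0.022, edgeR) and in the fit over all 5 groups (0.97, adjusted p = 0.0456, edgeR). Neither was called in the remaining alternatives, 11 of 13 and 14 of 16. The 12 macrophage markers summed to 336 to 668 CPM in 2-month controls, 662 to 1150 in 2-month mutants, 278 to 383 in 9-month controls, 830 to 874 in tumour-free tissue and 585 to 1300 in tumours, and their part in the Mxd1 level was not tested.

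Mxd4, the most abundant repressor, and Mnt, the broadly expressed one, were called in none of the 7 comparisons. Mxd4 was at 81 to 116 CPM (median 96) in 2-month controls and at 81.4, 83 and 77.3 CPM in mutants, a change of -0.25 (adjusted p = 0.076, edgeR) that turned to 0.02 when scaled by total count alone. At 9 months it ranged from 82.9 to 112 CPM in controls, 76.5 to 102 in tumour-free tissue and 74.8 to 112 in tumours. Mnt was at 11.4 to 24.6 CPM (median 17.3) in 2-month controls, 20.8, 14.8 and 15.1 CPM in mutants, and 12.7 to 23.1 CPM at 9 months, with all groups overlapping. Summed per kb, Myc, Mycn and Mycl amounted to 24.1 ± 8.22% of the MXD and MNT sum in 2-month controls (SD, n = 6), 21.5 ± 11.8% in 2-month mutants, 31.8 ± 15.6% in 9-month controls, 35.3 ± 30.8% in tumour-free tissue and 57.9 ± 34.4% in tumours (SD, n = 3 each), and the SD in tumours is larger than their difference from 9-month controls.

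Mlx rose in mutants at 2 months. Its level was 39.1 to 47.6 CPM (median 41.8) in controls and 59.9, 70.8 and 61.7 CPM in mutants, without overlap, a rise of 0.60 (SE 0.0857, 1.52-fold, adjusted p = 0.000215, edgeR) that was called in all 15 alternatives. At 9 months it was at 51.3, 51.2 and 47.8 CPM in controls and at 59.2, 74.9 and 72.8 CPM in tumour-free tissue, a rise of 0.44 (SE 0.136, 1.35-fold, adjusted p = 0.0381, edgeR). All tumour-free pieces were above all controls, but this call was lost without any of the 3 controls or without tumour-free tissue of mutant 2 or 3 (adjusted p = 0.0511 to 0.14). Tumours had 52.5 and 53.1 CPM in mutant 1, 53.4 in mutant 2 and 69 in mutant 3, above all controls by a small margin in 3 of the 4, and the change of 0.17 (SE 0.171) did not pass (adjusted p = 0.504, edgeR).

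Mlxipl, the ChREBP gene, was abundant everywhere and was called in no comparison. It was at 539 to 782 CPM (median 747) in 2-month controls and at 715, 541 and 475 CPM in mutants, a change of -0.27 (SE 0.159, adjusted p = 0.192, edgeR) that passed without mutant 1 (-0.47, adjusted p = 0.0327). At 9 months it was at 594, 592 and 489 CPM in controls and at 667, 690 and 955 CPM in tumour-free tissue, all of them above the controls, a change of 0.44 (SE 0.193, adjusted p = 0.113, edgeR) that passed when scaled by total count alone (0.88, adjusted p = 0.008). Tumours had 404 and 509 CPM in mutant 1, 753 in mutant 2 and 781 in mutant 3, on both sides of the controls. The effect in tumour-free tissue exceeded that at 2 months by 0.72 (SE 0.249, unadjusted p = 0.0105, adjusted p = 0.193, edgeR), which did not pass.

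**Figure D4:**
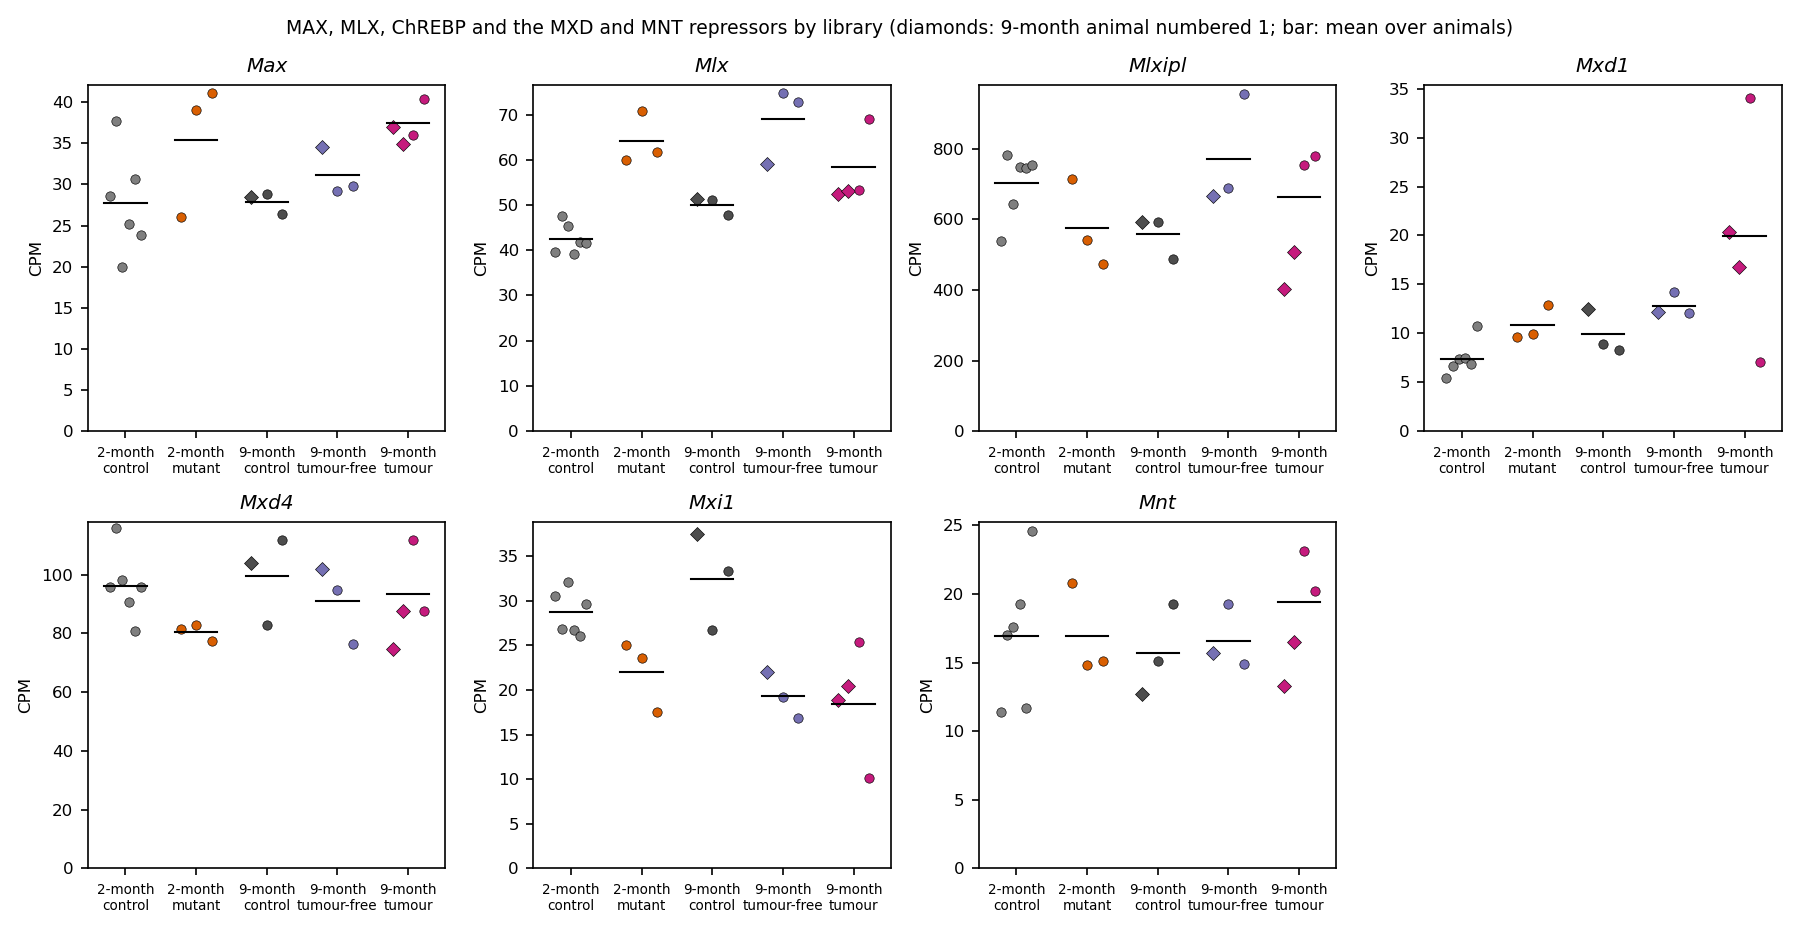
Levels of Max, Mlx, Mlxipl, Mxd1, Mxd4, Mxi1 and Mnt in CPM (y axes from 0) in the 19 libraries by group (x axis), where a point is a library, a bar the mean over animals and a diamond a library of control 1 or mutant 1 at 9 months. Mlx in 2-month mutants lies at 59.9 CPM or more and in their controls at 47.6 or less, whereas Mxd1 in tumours spans 7.11 to 34 CPM.

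With age, none of the 10 genes was called between 9-month and 2-month controls (edgeR), where 11.9% of all genes were called. Mlx came closest, with all 9-month controls above all 2-month ones by 0.24 (SE 0.0916, unadjusted p = 0.0225, adjusted p = 0.109), followed by Mlxipl, lower by a change of -0.33 (SE 0.136, adjusted p = 0.14). None of the 10 was called in the change of the mutant effect between 2 months and 9-month tumour-free tissue (1.52% of all genes called) or in the tumour effect beyond the 2-month effect (2.62% called). Of the 10, 1 had an unadjusted p under 0.05 in the former, Mlxipl, and 2 in the latter, Mycl and Mlx. For Myc the estimates were 0.54 (SE 0.944, adjusted p = 0.895) and 1.11 (SE 0.809, adjusted p = 0.539).

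The 3 remaining genes of the network were called in no comparison in which they were tested. Mxd3, a repressor of the MXD family, did not pass the filter on low counts at 2 months or between controls. It was at 0 to 0.225 CPM in 2-month controls, 0.409, 0.25 and 0.374 CPM in mutants of that age, all above those controls, 0.115, 0.499 and 0.0559 CPM in 9-month controls, 0.57 to 0.793 CPM in tumour-free tissue and 0.573 to 1 CPM in tumours. All 9-month mutant libraries were above all controls of that age, with changes of 1.61 (adjusted p = 0.087, edgeR) and 1.82 (adjusted p = 0.0934, edgeR). Mxd3 overlaps Prelid1, an abundant gene on the opposite strand, and no label states the strand setting of the counting, so its reads are uncertain. Mlxip had group means of 10.8 to 12.8 CPM and Mga, a large MAX partner, of 14.9 to 24.8 CPM.

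Genes known as MYC targets were then described by list. Leaving out an animal also changed the calls over all genes. In tumours against controls their count dropped from 3593 to 1419 without control 3. In tumour-free tissue it dropped from 5009 to 3351 without mutant 2. Of 25 ribosome biogenesis genes, 0 rose and 5 fell at 2 months, 1 rose and 4 fell in tumour-free tissue, and 0 rose and 1 fell in tumours, with median log2 changes of -0.12, -0.14 and 0.01 beside 0.0105, -0.00878 and 0.0149 over all genes. Of all genes tested 20.4%, 16.8% and 11.3% fell, so the falls of this list were at or below the background. Of all genes 22.3%, 18.1% and 13.8% rose, so its rises were below the background in all 3 comparisons. Examples are Nop16, a nucleolar protein, at -0.58 (adjusted p = 0.00311, edgeR) in 2-month mutants and Utp20, a processome component, at -0.84 (adjusted p = 0.0165, edgeR) in tumours. The 5 falls became 3 at 2 months without mutant 3 or without control 4, 5 or 6, and the 4 in tumour-free tissue became 1 without mutant 2 or without mutant 3. The fall of Utp20 in tumours was not called without control 3 or without all libraries numbered 1, where 1 gene of the list rose. Scaled by total count alone, 8 rose and 0 fell in tumour-free tissue and 10 rose and 0 fell in tumours. In tumours against tumour-free tissue none passed, and 20 of the 25 had a positive estimate (median 0.23, beside 0.0241 over all genes).

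Genes of nucleotide and polyamine synthesis moved both ways. Of 21, 4 rose and 5 fell at 2 months, 2 rose and 2 fell in tumour-free tissue, and 3 rose and 1 fell in tumours, beside 42.7%, 34.9% and 25.1% of all genes called in either direction. The tumour count was 2 up and 0 down without control 1 or without control 3. Ctps, the enzyme that makes CTP, rose by 2.43, 1.62 and 2.41 in the 3 comparisons (adjusted p = 6.17e-06, 0.000267 and 0.00132, edgeR), and Mthfd2, of mitochondrial folate metabolism, by 2.03, 1.86 and 2.89 (adjusted p = 0.000378, 0.000807 and 0.00114). Paics, of purine synthesis, was lower in all 3, at -1.64, -1.68 and -1.32 (adjusted p = 2.89e-06, 0.00379 and 0.0173). The last 2 comparisons share their controls.

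Cell cycle genes of the MYC target list rose more than they fell. At 2 months 6 of 17 rose and 0 fell, in tumour-free tissue 5 of 18 rose and 1 fell, and in tumours 6 of 18 rose and 0 fell, beside 22.3%, 18.1% and 13.8% of all genes that rose. Mcm6, a subunit of the replicative helicase, rose by 1.40, 1.85 and 2.07 (adjusted p = 8.4e-06, 0.000183 and 0.00259, edgeR), and Ccnd1, cyclin D1, by 2.30 at 2 months (adjusted p = 6.75e-05). In tumours 1 rose without control 1 or without control 3, 3 without mutant 1 and 2 without all libraries numbered 1, with 0 lower in each. The count over all genes there also dropped, from 3593 to 1419 without control 3.

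Genes of glucose and glutamine use rose in 7 of 16 at 2 months, in 6 in tumour-free tissue and in 8 in tumours, and 1 fell in each, beside 22.3%, 18.1% and 13.8% of all genes that rose. The summed level of the 16 did not rise with these counts. It was 778 to 933 CPM in 2-month controls and 664 to 803 in 2-month mutants. At 9 months it was 963 to 1110 CPM in controls, 752 to 867 in tumour-free tissue and 805 to 1120 in tumours. Pkm, pyruvate kinase M, rose by 1.91 in tumour-free tissue (adjusted p = 0.00126, edgeR) and by 2.84 in tumours (adjusted p = 0.00868), and Pfkp, a phosphofructokinase, by 1.14 and 2.51 (adjusted p = 0.00855 and 0.00259). For these 2 genes the tumour effect also exceeded the 2-month effect, by 2.16 (adjusted p = 0.0354) for Pkm and 1.99 (adjusted p = 0.0129) for Pfkp, and the count of 2 called in the list became 1 without 2-month mutant 1 or 2, without any of 2-month controls 1 to 5, without any 9-month control or without the tumour of mutant 2. Ldha, lactate dehydrogenase A, was lower at 2 months and in tumour-free tissue (-0.50 and -0.73, adjusted p = 0.00698 and 0.00897). At 2 months 1 rose without mutant 3. In tumours 4 rose without control 1, without control 3 or without all libraries numbered 1, and 5 without control 2 or without mutant 1. Without control 3 all genes called also dropped, from 3593 to 1419. Stellate cell and fibroblast markers (10 genes) summed to 280 to 410 CPM in 9-month controls, 521 to 816 in tumour-free tissue and 591 to 1060 in tumours, and their part and that of the bile duct markers in these rises was not tested.

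Of 7 genes that MYC is known to repress together with MIZ-1, 3 rose at each stage, and 2 fell at 2 months and 1 in each 9-month comparison. Of all genes 22.3%, 18.1% and 13.8% rose and 20.4%, 16.8% and 11.3% fell. Without mutant 1 the 2-month count was 2 up and 1 down. Cdkn1a and Cdkn2b, inhibitors of cyclin-dependent kinases, were among those that rose, by 3.08 and 2.02 at 2 months (adjusted p = 0.000234 and 0.00059, edgeR) and by 2.11 and 3.35 in tumours (adjusted p = 0.018 and 0.00534). Ndrg2 fell at each stage, with changes of -0.82, -1.07 and -1.50 (adjusted p = 0.00059, 0.00808 and 0.00836).

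Targets of ChREBP and MondoA, the MLX partners, were called lower more often than higher at 9 months, where Mlxipl itself was not called. Of 26, 3 rose and 5 fell at 2 months (median -0.15), 3 rose and 13 fell in tumour-free tissue (median -0.66) and 1 rose and 10 fell in tumours (median -0.91), beside 20.4%, 16.8% and 11.3% of all genes that fell. Txnip, the thioredoxin-binding protein that is a classic target of both factors, was at 195 ± 63.6 CPM in 9-month controls, 42.3 ± 4.75 in tumour-free tissue and 54.7 ± 15.7 in tumours (SD, n = 3 each), changes of -2.23 and -1.89 (adjusted p = 0.000225 and 0.0059, edgeR). Thrsp, a regulator of fat synthesis, was at 1870 ± 691, 137 ± 45.2 and 76.8 ± 62.1 CPM in the same groups (SD, n = 3 each), changes of -3.80 and -4.66 (adjusted p = 0.00017 and 0.012, edgeR). In tumours 6 fell without control 1, 5 without control 2 or without control 3, and 4 without all libraries numbered 1. Calls over all genes dropped as well, from 3593 to 1419 without control 3. At 2 months 2 fell without mutant 3.

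These targets also differed between 9-month and 2-month controls, where age and run cannot be told apart. Between them 14 of the 26 rose and 0 fell (median 0.80), beside 7.29% of all genes that rose and 4.64% that fell. All 26 estimates were positive, and Me1, malic enzyme, rose by 1.29 (adjusted p = 0.000178, edgeR). Of the 26, 8 rose without 9-month control 1 and 2 without 9-month control 2. In the change of the mutant effect with time 0.462% of all genes were called higher and 1.05% lower. The mutant effect in tumour-free tissue was below that at 2 months for Txnip (-1.51, adjusted p = 0.0275, edgeR) and Me1 (-1.27, adjusted p = 0.0386), and no other target of the 26 was called there. Without all libraries numbered 1 the count was 1, and with scaling by total count alone it was 0. It was also 0 without 2-month mutant 2 or 3 or without tumour-free tissue of mutant 2 or 3, and 1 without 2-month mutant 1, without 2-month control 1, 3, 4, 5 or 6 or without any 9-month control. The summed level of hepatocyte markers, which was also lower in mutants, stands above. Of the 14 markers, 1 rose and 7 fell at 2 months, 1 and 6 in tumour-free tissue, and 0 and 7 in tumours. Of all genes 22.3%, 18.1% and 13.8% rose and 20.4%, 16.8% and 11.3% fell. The part of these markers in the fall of the targets was not tested.

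**Figure D5:**
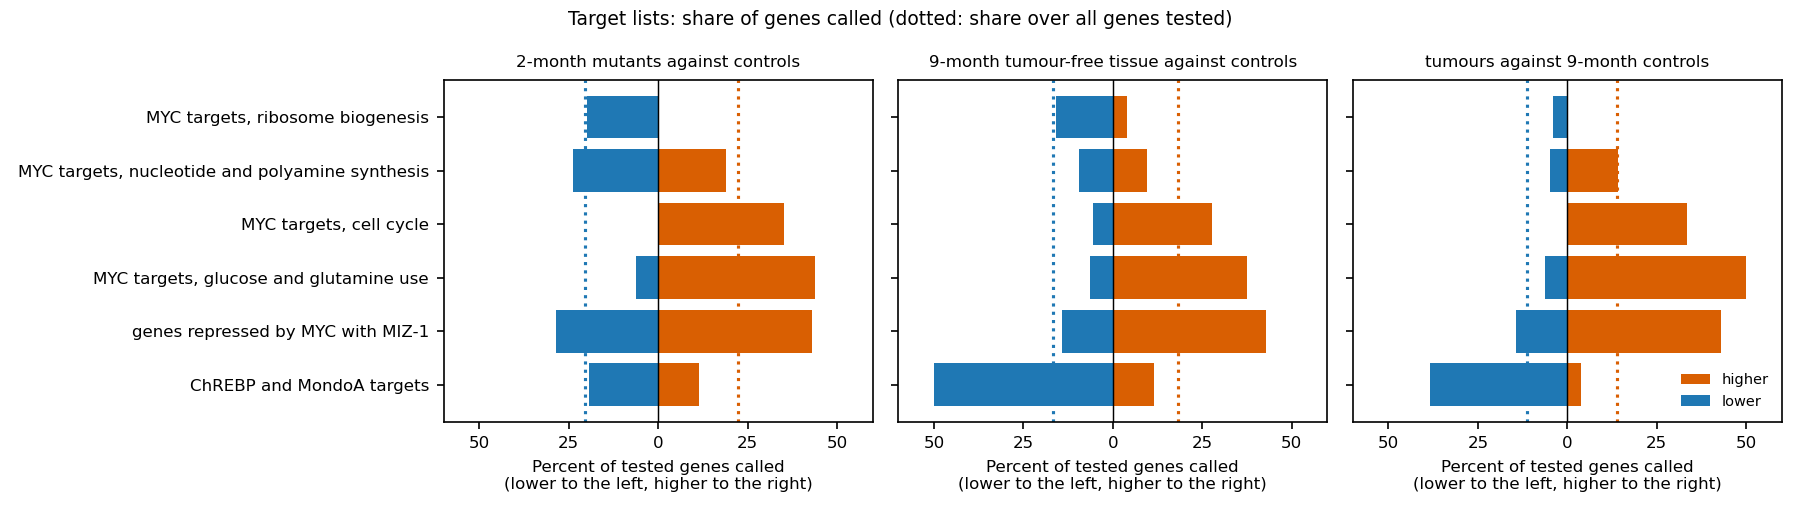
Percent of tested genes called higher (right) or lower (left) on the x axis for 6 target lists (y axis) in 3 comparisons, with dotted lines at the share over all genes tested. ChREBP and MondoA targets reach farthest to the left at 9 months (13 and 10 of 26 genes). The cell cycle and glucose lists extend to the right of the dotted line in each panel, and so do the genes repressed by MYC with MIZ-1 (3 of 7).

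The genes whose levels ran most like those of Myc over the 18 tissue samples, among 9934 protein coding genes with a mean of at least 5 CPM, were Nufip2 (Pearson r = 0.880), Lbr (0.870), Cachd1 (0.820), Snx16 (0.776) and Rragd (0.767). Cachd1 was at 0.782 to 1.44 CPM in 9-month controls, 2.6 to 11.5 in tumour-free tissue and 3.35 to 43.6 in tumours, so these groups did not overlap with controls. For Mlxipl they included Capn15 (0.739), Mau2 (0.686), Zfp740 (0.670) and Tagap1 (0.669), each with a lower r than the 5 genes named for Myc. These values describe the samples, which share groups, animals and sequencing runs.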

How the data were processed

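RNA of 19 mouse liver and liver tumour samples was measured by poly(A)-selected, strand-marked sequencing. The authors deposited whole-number counts per gene and library. Per the submitters' processing notes, the tools were bedtools 2.27.1, DESeq2 1.22.2, RSEM and STAR 2.6.1a, with build GRCm38. What each did, and the gene annotation used, is not given in the sources used here. If the counts are rounded RSEM estimates, low values carry that error too. Gene lengths and positions came from GENCODE M21, which holds 54587 of the 55421 identifiers with the same version. The members, gene lists, tests and alternatives were chosen with earlier results of these data known.

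The 2 tumours of mutant 1 were summed, giving 18 tissue samples. For each of 7 comparisons, only its groups entered the fit (R 4.3.3, edgeR 4.0.16, filterByExpr with a minimum count of 10, TMM, robust quasi-likelihood test), with Benjamini-Hochberg adjustment over all genes tested and a threshold of 0.05. The script was tested on simulated data. Levels are CPM after TMM scaling over the 19 libraries, and an animal's value is the mean of its tumours. Total counts of 14294611 to 22062341 per library limit the precision of low genes. Labels name separate animals, so spread within a group is between animals. Tumours and tumour-free tissue are paired, since the labels give the same animals, and same-animal deviations correlated at 0.041 to 0.322. The main fit had no term for the animal, so its SE and p there are unpaired. Only the replicate block used the pairing. All 10 members are given in every comparison. From each list the genes named are among the 4 with the smallest adjusted p, and for likeness the 5 with the highest correlation of log2 CPM (prior count of 2). Some genes that these rules name are left out of the text. Alternatives were DESeq2 1.42.0, RLE factors, library size alone, no filter, a fit over all 5 groups, a replicate block, separate tumours and leaving out libraries.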

Additional observations from a re-analysis of the deposited data

How the results depend on the processing

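Library size alone moved the scale: the median log2 change of all genes became 0.286, 0.425 and 0.475 in the 2-month, tumour-free and tumour comparisons with controls, and the share of calls that were higher rose from 52.1% to 77.7%, from 51.9% to 82.9% and from 54.9% to 85.1%. In the 2-month comparison 120 of 150 member values kept direction and call, in tumour-free tissue 112 of 130 and in tumours against controls 140 of 160.

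The count of members called at 2 months was 3 in the fit over all 5 groups and 3 with the replicate block (3 to 6 leaving out 1 library). In tumours against controls it was 2 with DESeq2, 2 with library size alone and 4 in the fit over all groups (0 to 2 leaving out 1). In tumours against tumour-free tissue it was 1 with DESeq2 and 1 in the fit over all groups, Mycl in both. All genes called ran from 3290 (block) to 7007 (library size) at 2 months, 3351 to 6884 in tumour-free tissue, 1419 to 6612 in tumours against controls, 0 to 442 in tumours against tumour-free tissue, 384 to 2214 between controls, and 54 to 534 and 17 to 866 in the 2 tests of change. Among the target lists the replicate block left 0 of 5 calls of ribosome biogenesis, 4 of 9 of nucleotide and polyamine synthesis and 1 of 8 of glucose and glutamine use at 2 months, 0 of 2 cofactors there, and 4 of 9 of glucose and glutamine use in tumours against controls. The cause was not tested.

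Replicate numbers are shared by name alone outside the tumour and tumour-free pair (correlations of -0.32 to 0.336 at 2 months, -0.108 to 0.423 in tumour-free tissue and -0.078 to 0.176 in tumours against controls). With the replicate block Myc was 0.75 in tumour-free tissue (adjusted p = 0.026) and 1.54 in tumours against controls (adjusted p = 0.0349), both then called, the latter also without all libraries numbered 1 (1.78, adjusted p = 0.047). The block, with numbers that do pair, called 0 members in tumours against tumour-free tissue and changed no call there. Elsewhere it lost Mycn and Mxi1 at 2 months (adjusted p = 0.0689 and 0.127), Mlx in tumour-free tissue (0.0559) and Mycl in tumours against controls (0.093). With no filter Mxi1 at 2 months and Mlx in tumour-free tissue were lost (0.0511 and 0.0612), and the fit over all groups lost Mxd1 and Mxi1 at 2 months (0.212 and 0.169).

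No called member reversed. Mxd4 at 2 months (-0.25, SE 0.104) reversed only with library size alone, which moved the scale of all genes. Other reversals were of values near 0 or with wide errors. At 2 months Mnt was -2e-06 (DESeq2), -5.7e-05 (RLE) and -0.009 (all groups), and -0.18 to 0.15 leaving out 1 library, Myc -0.11 to 0.59, and Mxd4 0.02 with library size. In tumour-free tissue Mxd4 was 0.28 with library size, Mnt -0.04 without libraries numbered 1 and -0.08 to 0.22 leaving out 1, and Myc -0.31 to 1.77. In tumours against controls Mxd4 was 0.33 with library size. In tumours against tumour-free tissue Mxd4 was -0.03 with separate tumours and -0.13 to 0.11 leaving out 1, Mxi1 -0.39 to 0.19 and Mxd1 -0.01 to 1.00. Between controls Max was -0.00019 with library size and -0.06 to 0.13 leaving out 1; Mxd4 was -0.05 with the block and -0.03 to 0.16; Mnt was 0.04 with the block, 0.03 without libraries numbered 1 and -0.28 to 0.03; Myc was -0.56 without libraries numbered 1 and -0.56 to 0.72. In the change with time Mlx was 0.0033 with library size and 0.0034 without libraries numbered 1, Mxd1 0.09 without them, Mycn -0.10 with the block, -0.09 without them and -0.21 to 1.15, Mnt -0.10 with the block and -0.08 to 0.28, Myc -0.35 with the block and -0.62 to 1.44, and Mxd4 -0.0083 to 0.25. In the tumour effect beyond 2 months Max ran from -0.12 to 0.15 and Mxd1 from -0.17 to 0.84.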

Other observations

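Genes whose products work with MYC or set its turnover were measured as lists. Of 15 cofactors, 0 rose and 2 fell at 2 months, among them the corepressor Sin3a (-0.53, adjusted p = 0.00194, edgeR), beside 42.7% of all genes called. Without mutant 2 the count was 0 up and 1 down. Of 9 genes of MYC protein turnover, 2 rose at 2 months and 1 in each 9-month comparison with controls, beside 22.3%, 18.1% and 13.8% of all genes that rose. Aurka, a mitotic kinase that stabilises MYC proteins, rose by 1.76, 1.16 and 1.34 (adjusted p = 0.000515, 0.0334 and 0.0421, edgeR), of which the 9-month calls were lost without all libraries numbered 1. The call in tumour-free tissue was also lost without control 1 or 3 or without tumour-free tissue of mutant 1 or 2, and that in tumours without control 1 or 3, mutant 1 or 3, or the second tumour of mutant 1, and with no filter on low counts. Huwe1, a ubiquitin ligase, rose by 0.26 at 2 months (adjusted p = 0.0212, edgeR), and the count of turnover genes called there was 1 without mutant 1 or without mutant 2. Fbxw7, which directs MYC proteins to the proteasome, was called in no comparison.

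The E-box letters were in 5 of 20 ribosome biogenesis promoters that had a RefSeq entry (25%), in 5 of 18 of the nucleotide and polyamine list (27.8%), in 2 of 14 of the cell cycle list (14.3%) and in 3 of 20 ChREBP and MondoA targets (15%), beside 8.09% of all genes. They were also in 5 of 17 immediate early genes (29.4%), 1 of 5 bile duct markers (20%), 1 of 6 genes repressed with MIZ-1 (16.7%) and 2 of 13 of the glucose and glutamine list (15.4%). Cofactors and hepatocyte markers each had 1 of 12 (8.33%). The turnover, other network member, macrophage, lymphocyte and neutrophil, stellate and endothelial lists had 0. A raised share was thus not particular to the target lists.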
